A study of Mus musculus with 3 samples.

Results

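The genes described here are 10 of the 32285 features counted in sections of mouse distal colon, chosen by symbol for their place in TGF-beta and activin signalling. They include the ligands Tgfb1, Tgfb2, Tgfb3 and Inhba and the receptors Tgfbr1 and Tgfbr2. The others are Thbs1, which acts on ligand activation, Ltbp2, of the latent TGF-beta binding family, and Tgfbi and Smad7, which TGF-beta induces. All 10 were present among the features. The rule names symbols and no expression value, but the genes were proposed with earlier results of these data known. The symbols pair with the following places on GRCm38 through RefSeq. The ligand genes are Tgfb1 on chromosome 7 from 25687002 to 25705077, Tgfb2 on chromosome 1 from 186622787 to 186709697, Tgfb3 on chromosome 12 from 86056743 to 86079041 and Inhba on chromosome 13 from 16004256 to 16031609. The receptor genes are Tgfbr1 on chromosome 4 from 47353222 to 47414926 and Tgfbr2 on chromosome 9 from 116087695 to 116175363. Thbs1 lies on chromosome 2 from 118111876 to 118127133, Ltbp2 on chromosome 12 from 84783212 to 84876558, Tgfbi on chromosome 13 from 56609586 to 56639359 and Smad7 on chromosome 18.

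Sections were measured with Visium, which captures messenger RNA from a frozen section on a grid of spots with known barcodes and counts each captured molecule by its unique molecular identifier (UMI). A spot covers a small region that may hold several cells. There were 3 libraries, each from 1 capture area of 1 slide and each labelled as holding 3 biological replicates: intact colon of Hgfac wild-type (WT) mice, day 2 wounds of the colon in Hgfac WT mice, and wounds of the same age in mice labelled Hgfac knockout (KO). The product of Hgfac is HGF activator, the protease that cleaves the precursor of hepatocyte growth factor. The labels give no strain, age, sex or kind of Hgfac allele, and intact colon of KO mice was not analysed here. The wound comparison asks how these genes stood in wounded against intact WT tissue, and the genotype comparison asks the same for the library labelled KO against the WT wound.

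TGF-beta is secreted in a latent complex held by its propeptide and by latent TGF-beta binding proteins in the matrix, and it signals only once released. Active TGF-beta and activin bind paired type I and type II receptor kinases that phosphorylate SMAD2 and SMAD3, and these enter the nucleus with SMAD4 and induce matrix genes and their own inhibitor SMAD7. In injured gut this signalling is known for its part in matrix deposition, epithelial restitution and the control of inflammation.

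The sequence just upstream of the annotated start was printed for the 3 genes whose wound levels differed most between places in the tissue and which have an entry in the RefSeq promoter table of GRCm38.p6. Capitals mark the letters CAGAC or, on the other strand, GTCTG, the short motif that SMAD proteins are known to bind. The Tgfbi window is chr13:56609336-56609585, plus strand, and ends at the start of the gene. The Inhba window is chr13:16011601-16011850, plus strand, and lies inside the annotated gene span of 16004256 to 16031609 on chromosome 13, before an internal start. The Ltbp2 window is chr12:84876559-84876741, minus strand, and stops where the annotated gene span begins.
Tgfbi: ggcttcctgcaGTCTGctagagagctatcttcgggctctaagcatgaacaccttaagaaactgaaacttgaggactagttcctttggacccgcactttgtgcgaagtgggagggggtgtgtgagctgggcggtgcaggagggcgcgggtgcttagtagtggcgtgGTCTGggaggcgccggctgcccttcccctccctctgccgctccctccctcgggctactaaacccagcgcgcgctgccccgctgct
Inhba: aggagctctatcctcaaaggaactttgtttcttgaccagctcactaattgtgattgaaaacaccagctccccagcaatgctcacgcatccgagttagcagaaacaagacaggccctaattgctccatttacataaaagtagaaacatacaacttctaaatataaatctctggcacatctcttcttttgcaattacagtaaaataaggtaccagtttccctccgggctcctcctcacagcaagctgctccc
Ltbp2: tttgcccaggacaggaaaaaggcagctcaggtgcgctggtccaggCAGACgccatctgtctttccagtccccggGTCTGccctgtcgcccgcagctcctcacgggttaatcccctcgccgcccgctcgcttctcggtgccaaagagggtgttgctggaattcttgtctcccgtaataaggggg

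The Tgfbi window holds 2 such matches and the Ltbp2 window 2, whereas the letters are not in the Inhba window. Of the 7 genes with an entry, Tgfbr1 has 2 windows of 250 bases, and 5 of the 8 windows hold such a match (1 each of Tgfb2, Tgfbr1, Tgfbr2, Tgfbi and Ltbp2), as do 42.2% of 32851 promoters in the table. The AP-1 motif TGANTCA, which reads alike on both strands, is in 6.75% of all promoters and in none of these windows. Such matches describe the letters only. Thbs1, Tgfb3 and Smad7 have no entry in the table.

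The libraries held 8180099 UMIs on 502 spots in intact WT tissue, 11306771 on 640 in the WT wound and 8930574 on 572 in the KO wound, and values are given as CPM, which is the UMIs of a gene per 1e+06 UMIs of the library or region. With 1 library per group no test between groups was possible and no difference has a replicate check. Ratios carry exact conditional binomial 95% intervals, in brackets, and levels exact Poisson intervals, and both cover counting error only. Each library held 3 separate tissue pieces of 116 to 251 spots, which the labels tie to no animal, so the piece values show the spread inside a library. Capture area and group cannot be told apart, and fewer cells of a type and less RNA per cell cannot be told apart either. Hgfac itself was counted at 76.6 CPM in intact WT tissue, 94.8 in the WT wound and 49.0 in the KO wound, a KO over WT ratio of 0.517 [0.462 to 0.579], so transcripts of the gene were still present and the group is called the library labelled KO where a direction is drawn from it. CPM values of different genes are not compared with each other.

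Among the ligands, Tgfb1, the isoform made by many immune and stromal cells, was higher in the WT wound. It was counted at 2.44 CPM in intact WT tissue (20 UMIs), 5.57 in the WT wound (63 UMIs) and 5.04 in the KO wound (45 UMIs). The pieces ran from 0.934 to 3.55 CPM in intact WT tissue, from 4.20 to 8.54 in the WT wound and from 4.17 to 6.66 in the KO wound, so both sets of wound pieces lay above the intact ones. The WT wound over intact ratio was 2.28 [1.36 to 3.98], while KO over WT wound was 0.904 [0.603 to 1.35].

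Tgfb2 and Tgfb3, isoforms known for their roles in development, showed no such step between intact and wounded tissue. Tgfb2 stood at 8.92 CPM in intact WT tissue, 9.02 in the WT wound and 5.71 in the KO wound, with ratios of 1.01 [0.741 to 1.38] for wound over intact and 0.633 [0.443 to 0.894] for KO over WT wound. Without KO piece 1 the latter was 0.393. The Tgfb2 pieces overlapped between the wound libraries, at 4.44 to 12.5 CPM in WT and 3.03 to 8.97 in KO. Tgfb3 stood at 8.19, 9.99 and 11 CPM in intact WT tissue, the WT wound and the KO wound, with ratios of 1.22 [0.894 to 1.68] and 1.1 [0.829 to 1.45]. The 3 KO pieces disagreed on Tgfb3, with 19.1 CPM in piece 1 against 4.92 and 6.29 in pieces 2 and 3, and piece 1 also held the most stroma and muscle spots of that library (64 and 50, against 21 and 21 in piece 2 and 29 and 19 in piece 3).

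Inhba encodes the subunit whose dimer is activin A, a ligand known to rise early after injury in skin and gut. It was higher in each library in turn, from 3.67 CPM in intact WT tissue (30 UMIs) to 7.08 in the WT wound (80 UMIs) and 13.0 in the KO wound (116 UMIs). Its pieces were at 4.67, 3.43 and 3.19 CPM in intact WT tissue, at 6.84, 5.68 and 9.18 in the WT wound, and at 8.97, 9.85 and 21.1 in the KO wound. All wound pieces exceeded all intact pieces, and the wound over intact ratio was 1.93 [1.25 to 3.04]. KO over WT wound was 1.84 [1.37 to 2.47], but the lowest KO piece fell just under the highest WT piece and KO piece 3 alone held 57 of the 116 UMIs. Without that piece the ratio was 1.34.

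The receptors differed less. Tgfbr1, the type I receptor kinase, was counted at 21.6, 25.8 and 26.5 CPM in intact WT tissue, the WT wound and the KO wound. Its pieces ran from 20.6 to 22.4 CPM in intact WT tissue and from 24.7 to 27.8 in the WT wound without overlap, although the ratio of 1.19 had an interval that held 1 [0.987 to 1.45]. Tgfbr2, the type II receptor that binds the ligand first, was at 75.4 CPM in intact WT tissue, 108 in the WT wound and 105 in the KO wound, a wound over intact ratio of 1.43 [1.30 to 1.58]. Its intact pieces, at 72.1 to 82.7 CPM, did not reach those of the WT wound, which were at 89.1 to 131. Neither receptor separated the 2 wound libraries, with KO over WT ratios of 1.03 [0.862 to 1.22] for Tgfbr1 and 0.973 [0.893 to 1.06] for Tgfbr2.

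Thbs1 showed the largest difference between the wound libraries among the 10 genes. It encodes thrombospondin 1, a matrix and platelet glycoprotein known to release active TGF-beta from its latent complex. Thbs1 was counted at 27.1 CPM in intact WT tissue (222 UMIs), 35.9 in the WT wound (406 UMIs) and 82.5 in the KO wound (737 UMIs). Its pieces were at 24.8, 29.0 and 26.9 CPM in intact WT tissue, at 33.0, 39.0 and 35.8 in the WT wound, and at 67.3, 106 and 80.3 in the KO wound. The 3 libraries did not overlap, and the lowest KO piece stood well above the highest WT wound piece. The ratios were 1.32 [1.12 to 1.57] for WT wound over intact and 2.30 [2.03 to 2.60] for KO over WT wound, and the latter stayed between 2.02 and 2.58 when each piece was left out in turn.

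Ltbp2, a matrix protein of the latent TGF-beta binding family that is not known to bind latent TGF-beta itself, was nearly absent from intact tissue. It had 4 UMIs in intact WT tissue (0.489 CPM), 42 in the WT wound (3.71 CPM) and 44 in the KO wound (4.93 CPM). The wound over intact ratio was 7.60 [2.76 to 29.2] with under 50 UMIs over both libraries, and the pieces overlapped because WT wound piece 3 held 3 UMIs (0.949 CPM) while intact piece 3 also held 3 (1.06 CPM). Between the wound libraries the ratio was 1.33 [0.849 to 2.07].

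Of the induced genes, Tgfbi, a secreted matrix protein made by fibroblasts and macrophages, was higher in both wound libraries. It was counted at 72.7 CPM in intact WT tissue, 130 in the WT wound and 163 in the KO wound. The intact pieces were at 78.0, 71.2 and 70.2 CPM, those of the WT wound at 134, 132 and 124, and the KO pieces at 177, 180 and 129. Wound over intact was 1.79 [1.63 to 1.97] with the pieces apart, whereas KO over WT wound was 1.25 [1.16 to 1.35] and KO piece 3 fell inside the WT range. Smad7, the inhibitory SMAD that blocks the type I receptor, stayed close to level, at 27.8, 29.2 and 33.4 CPM, with ratios of 1.05 [0.886 to 1.25] and 1.14 [0.974 to 1.34].

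**Figure D1:**
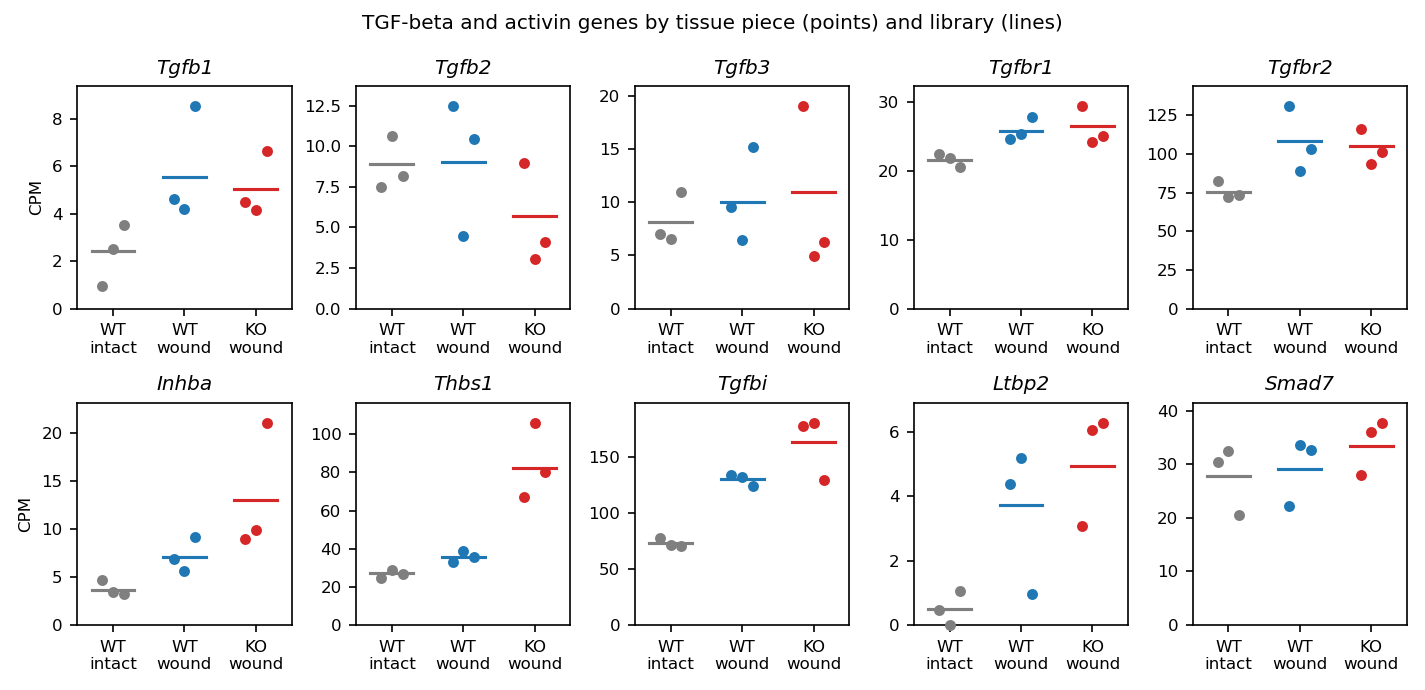
CPM (vertical axis, each panel with its own scale from 0) of the 10 genes in each tissue piece (points) and in the whole library (lines) for intact WT tissue, the WT wound and the KO wound. The Thbs1 points of the 3 libraries do not overlap, and the wound points of Tgfb1, Inhba and Tgfbi lie above the intact ones.

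For WT wound over WT intact, 1 of the 9 members that had 50 or more UMIs in the pair reached a ratio of 2 (Tgfb1), against 3.29% of all 12402 features with that many UMIs, and none was at or below 0.5, against 3.08%. In 6 of these 9 genes all wound pieces lay above all intact pieces (Tgfb1, Tgfbr1, Tgfbr2, Inhba, Thbs1 and Tgfbi), where 15.6% of those features did so, and in none did they all lie below, where 6.89% did. The median log2 ratio of the 10 genes was 0.46 and that of all features 0.09. The Tgfb1 ratio was 1.81 without WT wound piece 3 and 1.87 without WT intact piece 1, so the single gene past the fold depends on either piece. Marker lists differed between the same libraries, with wound over intact ratios of 2.21 for the macrophage list (14 of 14 genes higher), 2.57 for the inflammatory list, 1.81 for resident macrophages, 3.68 for T and B cells, 0.755 for muscle and 0.418 for enteric nerve and glia, and their part was not tested. The T and B cell list was at 22.2, 25.4 and 161 CPM in WT wound pieces 1 to 3, so piece 3 carried its ratio.

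For KO over WT wound, 1 of the 10 genes reached a ratio of 2 (Thbs1), against 0.73% of all 12463 features, and none was at or below 0.5, against 0.746%. Thbs1 was also the only one of the 10 with all KO pieces above all WT wound pieces, which 5.79% of all features showed, and none had all pieces below, which 2.24% showed. The median log2 ratio was 0.16 for the 10 genes and 0.05 for all features. Both comparisons use the WT wound library, so their values are given side by side and are not set against each other.

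The spots were sorted into 4 tissue layers by marker genes that include none of the 10: surface epithelium, crypt epithelium, stroma and muscle. Of 1714 spots, 218 had 2 leading marker lists within a factor of 1.25 of each other. The crypt list holds cell division genes such as Mki67, Top2a and Pcna beside the stem cell genes Lgr5 and Ascl2. A crypt spot is thus named by its markers, and its RNA need not all come from crypt cells. The layers differed in size between libraries, with 231 muscle spots in intact WT tissue, 174 in the WT wound and 90 in the KO wound, and 109, 217 and 227 surface spots in the same order, so levels are given within layers.

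Tgfb2, Tgfb3 and Thbs1 were higher on stroma and muscle spots than on epithelium in all 3 libraries. On stroma and muscle spots together, Tgfb3 was at 19.7 CPM in intact WT tissue, 24.1 in the WT wound and 35.2 in the KO wound, against 1.54, 2.56 and 2.42 on epithelial spots, ratios of 12.8 [6.09 to 31.0], 9.42 [5.71 to 16.3] and 14.5 [8.42 to 26.6]. Tgfb2 was 7.32 [4.04 to 14.2], 3.81 [2.49 to 5.93] and 5.66 [3.08 to 10.8] times higher there, with its highest levels on muscle spots (25.9, 22.2 and 21.3 CPM). On stroma spots alone Tgfb2 was at 6.34, 12.6 and 8.80 CPM, with intervals that overlapped those of crypt spots (4.44, 6.74 and 5.83 CPM). Thbs1 was 3.69 [2.77 to 4.97], 3.25 [2.65 to 4.0] and 4.78 [4.11 to 5.58] times higher. These 3 of the 7 genes with at least 50 UMIs over both kinds of spot passed a ratio of 2 in intact WT tissue, where 16.4% of features did, and the same 3 of 9 did so in the WT wound, where 18.5% did. In the KO wound 5 of 8 did, with Inhba at 2.55 [1.74 to 3.74] and Tgfbi at 3.30 [2.97 to 3.66] added, where 17.9% of features did. In intact WT tissue Inhba was at 6.95 [2.77 to 20.8] on 24 and 6 UMIs, too few to be counted. Tgfb3 reached 50 UMIs through stroma and muscle in each library, with 59, 94 and 82 UMIs there and 8, 19 and 16 on epithelium. Tgfb2 did so in intact WT tissue (59 and 14 UMIs) and the KO wound (34 and 17). Genes that enter a count this way were likely to pass the ratio, so the counts lean that way. Without piece 2 the count was 1 in intact WT tissue, and without piece 1 or piece 3 it was 5 in the WT wound.

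Smad7 lay the other way. It was lower on stroma and muscle spots than on epithelial spots in each library, with ratios of 0.529 [0.381 to 0.723], 0.398 [0.294 to 0.531] and 0.464 [0.327 to 0.646]. On surface spots it stood at 45.4 CPM in intact WT tissue, 42.6 in the WT wound and 45.0 in the KO wound, and on crypt spots at 11.1, 16.5 and 21.0. The surface level thus varied little while the crypt level was below it in every library. Both receptors were present in all layers, and Tgfbr2 was highest on stroma spots, at 130, 181 and 181 CPM.

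**Figure D2:**
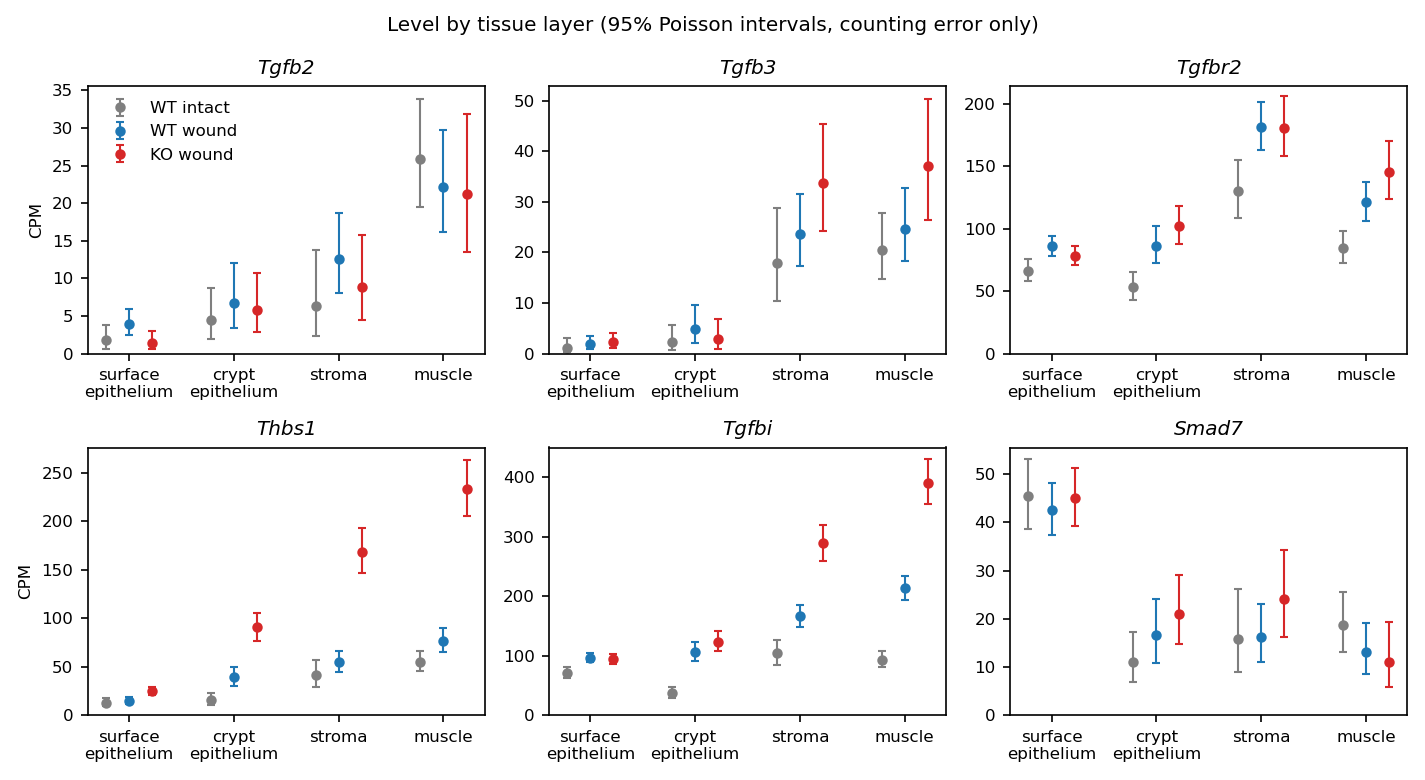
CPM (vertical axis from 0) of 6 genes on the spots of 4 tissue layers (horizontal axis) in the 3 libraries, with exact 95% Poisson intervals for counting error only. Tgfb2 is highest in muscle, Tgfb3 is high in stroma and muscle, Smad7 is high on surface epithelium, and Thbs1 is higher in the KO wound than in the WT wound in every layer.

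Within layers, the ratio of WT wound over intact tissue for Thbs1, Tgfbi and Inhba was highest on crypt spots. Thbs1 was at 15.6 CPM there in intact tissue and 39.2 in the wound, a ratio of 2.52 [1.59 to 4.08], and Tgfbi at 36.7 and 106, a ratio of 2.89 [2.16 to 3.90], both with the pieces apart. Inhba had 2 UMIs on intact crypt spots (1.11 CPM) and 21 in the wound (12.9 CPM), a ratio of 11.6 [2.83 to 102], though 1 of the wound pieces had none. Ltbp2 had 0 UMIs on intact and 11 on wound crypt spots. These crypt ratios pool spots in and far from the macrophage core that is defined below. That core took in 9 WT wound crypt spots, with 16 of the 21 Inhba and 38 of the 64 Thbs1 UMIs. There Thbs1 was at 176 CPM and Tgfbi at 319. On the 28 crypt spots at 6 or more steps Thbs1 was at 8.12 CPM, Tgfbi at 56.8, and Inhba had 0 UMIs. On muscle spots Tgfbi was 2.28 times higher in the wound [1.92 to 2.72], at 213 against 93.5 CPM. As the equal-weight mean of the log2 ratios of the 4 layers, the wound over intact ratio was 2.43 for Tgfb1, 2.32 for Inhba, 1.94 for Tgfbi, 1.52 for Thbs1 and 0.997 for Smad7. The Inhba mean spans layer log2 ratios from -0.67 on stroma to 3.24 on crypt spots, where intact tissue had only 2 UMIs.

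The Thbs1 difference between the wound libraries was present in each layer. KO over WT wound was 3.10 [2.44 to 3.96] on stroma spots (169 against 54.5 CPM), 3.04 [2.48 to 3.75] on muscle spots (233 against 76.6 CPM), 2.31 [1.71 to 3.14] on crypt spots and 1.64 [1.23 to 2.19] on surface spots. The KO pieces lay above all WT pieces in stroma, muscle and surface, and overlapped with them on crypt spots. Inhba was 4.58 [2.09 to 11.1] times higher on stroma spots, at 21.6 against 4.72 CPM with the pieces apart, and 1.77 [1.02 to 3.09] times on muscle spots, where the pieces overlapped. Tgfbi was higher on stroma, by a ratio of 1.73 [1.49 to 2.02] with the pieces apart, and on muscle, by 1.84 [1.60 to 2.11] with overlap, whereas on surface spots it was at 94.4 CPM in KO and 96.5 in WT. Tgfb2 had its lowest KO over WT ratio on surface spots, at 1.43 against 3.98 CPM (7 and 23 UMIs), a ratio of 0.360 [0.131 to 0.867]. The layer-standardised KO over WT ratio was 2.44 for Thbs1, 2.07 for Inhba and 1.38 for Tgfbi.

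**Figure D3:**
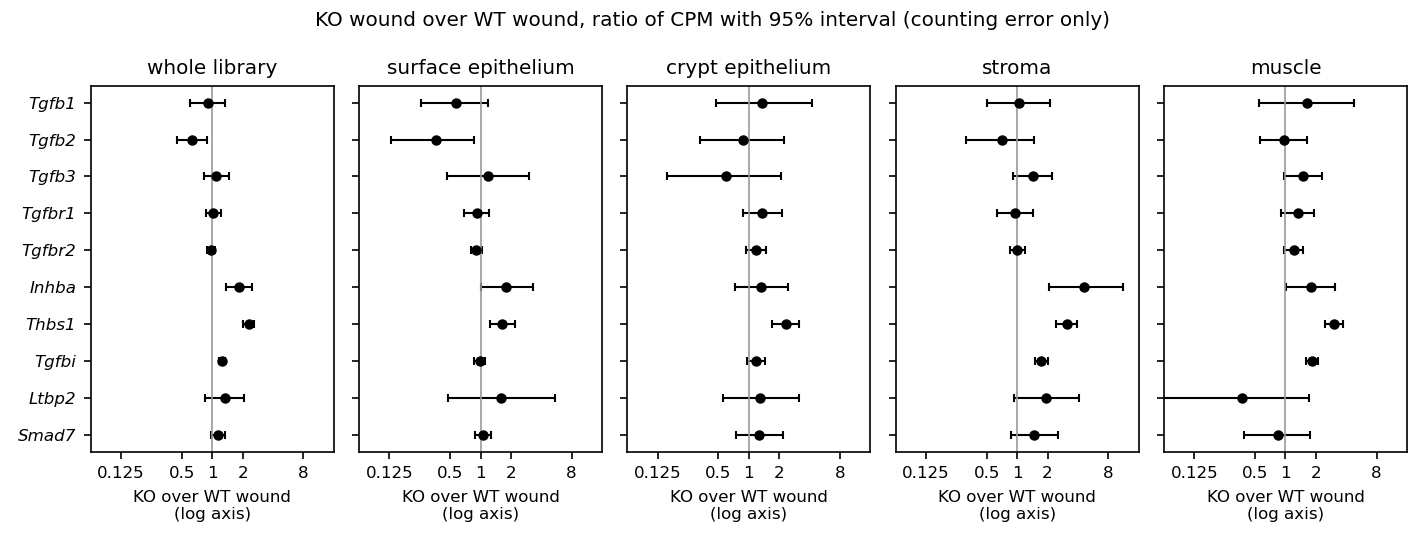
Ratio of CPM in the KO wound over WT wound (horizontal, log axis) for the 10 genes in the whole library and in each of 4 layers, with 95% intervals for counting error only; the grey line marks 1 and the lower bound for Ltbp2 on muscle spots runs off the axis. Thbs1 lies above 1 in every panel, while Tgfbr2 and Smad7 have intervals that hold 1 in every panel.

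The labels do not place the wound in a piece, so its centre was approached by marker genes. In each piece the core was the 10% of spots with the highest share of a 17-gene neutrophil and inflammatory list over a spot and its neighbours, and rings were drawn at 1 to 2, 3 to 5 and 6 or more array steps from it. This list was carried by 2 genes that epithelium also makes, Slpi and Il1rn, which held 95.4% of its UMIs in intact WT tissue, 87.5% in the WT wound and 52.5% in the KO wound, and 47 of the 64 core spots of the WT wound were surface epithelium. A second core, an alternative taken from a 14-gene macrophage list, had 1 surface, 9 crypt, 34 stroma and 20 muscle spots in the WT wound and 4, 14, 21 and 18 in the KO wound. Lyz2 held 6322 of the 9148 UMIs of this list in the WT wound and 6957 of 10811 in the KO wound. The WT core held 2603 CPM of the macrophage list and 366 of the inflammatory list, and the KO core 5378 and 2388. KO over WT ratios in this core thus compare cores of unlike make-up. Values are given for both, and the first is called the inflammatory core.

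Around the macrophage core, Inhba, Thbs1, Tgfbi and Ltbp2 were concentrated in the same places. Thbs1 stood at 145 CPM in the WT wound core and 14.1 at 6 or more steps, 10.3 times higher [7.58 to 14.2], and at 303 against 19.5 CPM in the KO wound, 15.5 times higher [11.8 to 20.6]. Inhba stood at 33.3 against 1.88 CPM in the WT wound, 17.7 times higher [7.99 to 44.4] on 40 UMIs, and at 76.2 against 2.33 in the KO wound, 32.7 times higher [15.7 to 78.8]. The core spots held 32 of the 80 Inhba UMIs of the WT wound and 68 of the 116 of the KO wound, and a single KO spot held 19. Tgfbi was 4.76 [4.10 to 5.54] times higher in the WT core and 5.30 [4.57 to 6.15] times in the KO core. Ltbp2 had 27 UMIs in the WT core and 32 in the KO core, with 2 at 6 or more steps in each, so its far level is under the floor of 3 UMIs. In intact tissue only 24 spots lay at 6 or more steps from the spots this list picked, none of them in piece 2. There Thbs1 was at 36.2 CPM in the core and 44.6 far from it (26 and 10 UMIs), and Tgfbi at 80.8 and 44.6 CPM, a ratio of 1.81 [0.919 to 3.98].

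The direction was the same in the single pieces, on few UMIs for some genes. The core exceeded the far spots in 3 of 3 pieces of both wound libraries for Inhba, Thbs1, Tgfbi, Ltbp2, Tgfbr1, Tgfbr2, Tgfb2 and Tgfb3. In core and far spots Tgfb2 had 3 and 2 UMIs in KO piece 2 and 1 and 0 in KO piece 3. Tgfb3 had 1 and 2 UMIs in KO piece 3, and Ltbp2 had 1 and 2 in WT piece 3. The core level of Thbs1 was 105, 154 and 168 CPM in the WT pieces and 130, 540 and 270 in the KO pieces, so the libraries overlapped in the core and KO piece 2 was the highest. Inhba core levels were alike in the WT pieces, at 35.0, 32.8 and 32.4 CPM, and ran to 37.0, 54.3 and 140 in the KO pieces, all above the WT ones. Smad7 ran the other way, at 20.8 CPM in the WT core against 35.7 far from it and 28.0 against 41.1 in KO, ratios of 0.582 [0.346 to 0.931] and 0.682 [0.427 to 1.05], and was lower in the core in 3 of 3 pieces of each.

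At least 2-fold higher in the macrophage core were 6 of the 7 genes with at least 50 UMIs in the WT wound (Tgfb2, Tgfb3, Tgfbr1, Tgfbr2, Thbs1 and Tgfbi), where 17.4% of all features were, and 4 of 6 in the KO wound (Tgfbr1, Inhba, Thbs1 and Tgfbi), where 18.4% were. From the inflammatory core, 1 of 6 in the WT wound was (Tgfbi, 2.07 [1.78 to 2.41]), where 2.77% of features were, and 4 of 6 in the KO wound (Tgfbr1, Inhba, Thbs1 and Tgfbi), where 12.1% were. Inhba entered the counts of the KO wound through its UMIs in the core, whereas in the WT wound it had too few UMIs to be counted at 5.12 [2.60 to 10.7] (31 and 13 UMIs) for the inflammatory core, so the counts of the libraries are not alike. Likewise Tgfb2 (27 core and 31 far UMIs) and Tgfb3 (29 and 26) entered the WT macrophage core count through their core UMIs, so that count leans toward passing. In the KO wound they had too few, at 12 and 12 for Tgfb2 and 17 and 15 for Tgfb3. Thbs1 was 1.88 [1.37 to 2.58] times higher in the WT inflammatory core and 21.0 [15.1 to 29.8] times in the KO one. By layer, the WT and KO ratios of Thbs1 were 2.18 [1.25 to 3.86] and 6.97 [4.21 to 11.7] on surface spots. They were 1.23 [0.453 to 2.90] and 61.9 [20.7 to 304] on stroma and 2.19 [0.756 to 5.24] and 18.8 [6.97 to 71.2] on muscle spots. The far KO spots of stroma and muscle held only 3 and 4 Thbs1 UMIs. On crypt spots alone the order of size was the other, at 23.9 [7.45 to 122] and 11.4 [4.94 to 32.1]. Single pieces weighed on the inflammatory core, since the KO ratio of Thbs1 was 45.9 without piece 1 and 9.42 without piece 2, and that of Inhba 84.9 without piece 1 and 3.38 without piece 3. The number of genes at least 2-fold higher there was 2 in the KO wound without piece 2, and in the WT wound 2 without piece 1 and 0 without piece 2. Tgfb3 lay on opposite sides with the choice of core in the WT wound, at 2.24 CPM in the inflammatory core against 11 far from it (4 and 42 UMIs) but at 30.1 against 6.11 for the macrophage core. When Slpi and Il1rn were left out of the list, a step chosen after seeing the data, 6 genes of the WT wound were at least 2-fold higher in the core.

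**Figure D4:**
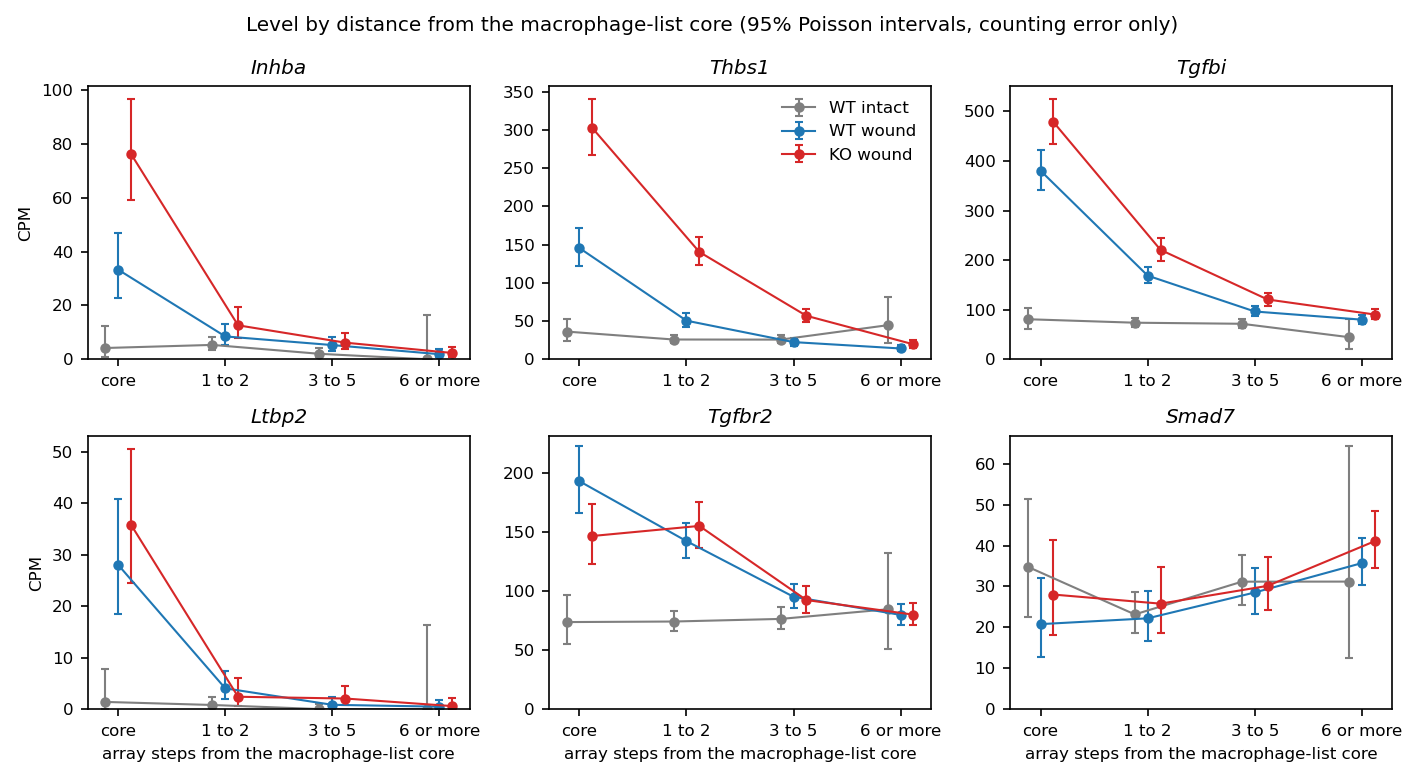
CPM (vertical axis from 0) of 6 genes by array steps from the macrophage-list core (horizontal axis) in the 3 libraries, with exact 95% Poisson intervals for counting error only. In both wound libraries Inhba, Thbs1, Tgfbi and Ltbp2 are highest in the core, Smad7 is lowest in the core or at 1 to 2 steps, and the intact library lies below both wound cores in these 4 genes at every distance.

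Layer make-up differed between core and far spots, so the contrast was repeated within layers. On crypt spots Thbs1 was 21.6 [7.79 to 83.5] times higher in the macrophage core of the WT wound and 7.80 [4.13 to 16] times in the KO wound. On muscle spots it was 5.10 [2.86 to 9.64] and 3.76 [1.83 to 8.70] times higher, and on stroma spots 4.87 [2.33 to 11.4] times in WT and, over 135 and 2 UMIs, 47.5 [12.9 to 396] times in KO. Inhba had 16 UMIs on the 9 crypt-like core spots of the WT wound and 22 on the 14 of the KO wound. None was counted on the 28 and 37 far crypt spots, which allows up to 6.09 and 8.36 CPM there, against 74.0 and 104 CPM in the core. On muscle spots Tgfb2 was not higher in the core, at 0.969 [0.398 to 2.30] in WT and 0.677 [0.203 to 2.26] in KO. Tgfb3 was at 0.948 [0.372 to 2.34] and 0.871 [0.289 to 2.75] there. On WT stroma spots Tgfb2 was at 4.94 [1.02 to 46.9] and Tgfb3 at 3.95 [1.41 to 13.6]. Tgfbr1 was at 0.369 [0.112 to 1.09] on KO muscle and 9.07 [2.60 to 48.6] on KO crypt spots. The lower Smad7 of the core was seen on WT muscle spots only, among the crypt, stroma and muscle layers compared here. Its WT wound ratio was 2.85 [1.01 to 8.31] on crypt, 1.65 [0.390 to 7.93] on stroma and 0.274 [0.0288 to 1.32] on muscle spots, with 2 to 10 UMIs on either side. In the KO wound it was 1.13 [0.235 to 4.78], 2.81 [0.562 to 27.2] and 1.02 [0.116 to 12.2] in the same order, on 2 to 8 UMIs. Surface spots were too few in the core to compare, at 1 in WT and 4 in KO.

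The Thbs1 ratio of the library labelled KO over the WT wound varied with the place, a variation that was not tested. By distance from the macrophage core, KO over WT wound was 2.08 [1.69 to 2.57] in the core, 2.78 [2.23 to 3.48] at 1 to 2 steps, 2.54 [1.93 to 3.35] at 3 to 5 steps and 1.38 [0.962 to 2.0] at 6 or more. The KO pieces lay above all WT pieces in the 2 middle rings only. By distance from the inflammatory core the ratio was 6.0 [4.66 to 7.81], 2.32 [1.89 to 2.87] and 2.22 [1.70 to 2.90] in the core and the next 2 rings, and 0.539 [0.364 to 0.785] at 6 or more steps, where KO had 12.7 CPM and WT 23.5. Far KO spots of that definition were surface epithelium in 120 of 174 cases and far WT spots in 80 of 230, while core spots were so in 19 of 57 and 47 of 64. Inside that core Thbs1 was at 76.3 CPM in KO and 24.3 in WT on surface spots, and at 215 and 173 on crypt spots. On the 12 and 7 stroma spots of the core it was at 780 and 70.0 CPM, so the KO over WT ratio pools unlike layers. The part of the layers in these ratios was not tested. Inhba exceeded WT by 2.29 [1.48 to 3.61] in the macrophage core, with the pieces apart, and by 1.24 [0.406 to 3.79] at 6 or more steps.

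**Figure D5:**
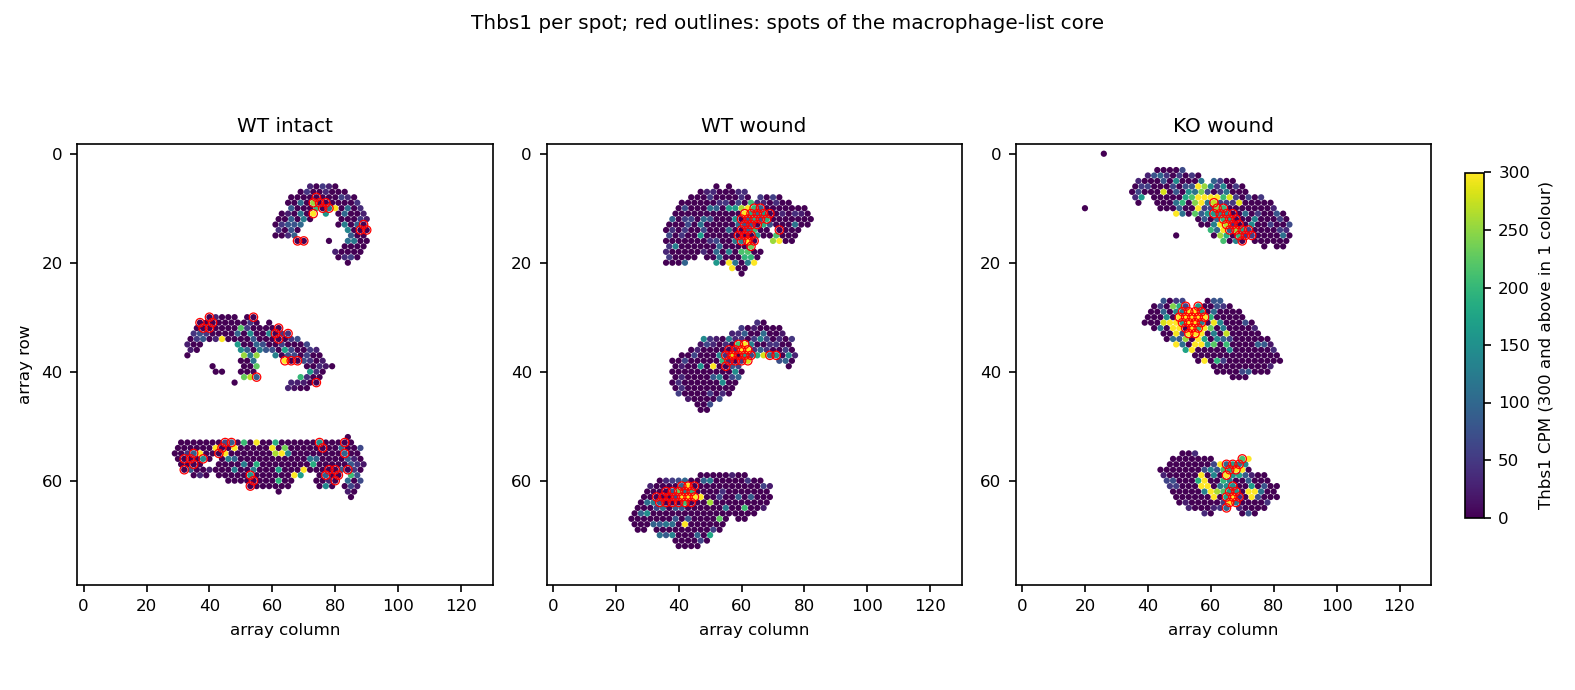
Spots of the 3 libraries at their array column (horizontal axis) and row (vertical axis), coloured by Thbs1 CPM of the spot, with red outlines on the spots of the macrophage-list core. High spots cluster in and around the outlined core in the wound libraries, extend further beyond it in the KO wound, and are scattered in intact WT tissue.

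Other cell types differed between the wound libraries together with Thbs1 and Inhba. The macrophage list was 1.5 [1.46 to 1.54] times as high in the KO wound as in the WT one, with 14 of its 14 genes higher, and the inflammatory list 2.38 [2.29 to 2.48] times, with 17 of 17 higher. By piece, the inflammatory list ran from 250 to 400 CPM in the WT wound and was at 294, 1240 and 801 CPM in KO pieces 1 to 3, highest in the piece that was also highest in Thbs1. The macrophage list was at 1622, 1071 and 787 CPM in the same pieces, highest in piece 1, where Thbs1 and Inhba were lowest. A 7-gene platelet list was 1.65 [1.52 to 1.78] times higher, with 2 of its 7 genes higher. Pf4, which macrophages also make, held 1431 of its 1494 UMIs in KO. Ppbp, the other gene that was higher, had 1, 7 and 30 UMIs in intact WT tissue, the WT wound and the KO wound. In the same order Itga2b had 23, 32 and 23, Gp1bb 2, 19 and 10, and Clec1b 2, 1 and 0. Gp9 and Treml1 had no UMI in any library. An endothelial list was 1.21 [1.14 to 1.29] times higher, and a muscle list was at a ratio of 0.788 [0.779 to 0.798]. The WT macrophage core also held 306 CPM of a T and B cell list and 347 CPM of an adipocyte list, against 19.1 and 11.2 CPM in the KO core. Single pieces carried both lists. Over whole WT wound pieces 1 to 3 the T and B cell list was at 22.2, 25.4 and 161 CPM. The adipocyte list was at 244, 4.44 and 6.01 CPM in the same pieces. What part these cell types have in the differences of the 10 genes was not tested.

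Further genes of the pathway were read from lists by role. Of 23 known TGF-beta target genes, 11 had a ratio of at least 2 in WT wound over intact, against 3.29% of all features, and none of at most 0.5, against 3.08%, with a median log2 ratio of 0.85 against 0.08 over 15096 features with at least 10 UMIs. Lox, which crosslinks collagen, was at 21.1 against 2.93 CPM, a ratio of 7.20 [4.73 to 11.5], and Timp1, an inhibitor of matrix metalloproteinases, at 47.8 against 6.97 CPM, 6.85 [5.21 to 9.17], both with the pieces apart. Tagln, an actin-binding protein of smooth muscle, and Cdkn2b, an inhibitor of the cell cycle, had lower ratios, Tagln at 0.532 [0.522 to 0.543] and Cdkn2b at 0.666 [0.570 to 0.779], with overlapping pieces. In KO over WT wound Timp1 had a ratio of 2.19 [1.97 to 2.44] and its pieces did not overlap, while the median log2 ratio of the list was 0.22 against 0.04.

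Of 18 latency and activation genes with at least 50 UMIs, 1 reached a ratio of 2 in WT wound over intact, where 3.29% of all features did, and 2 in KO over WT wound, where 0.73% did. Nrros, which anchors latent TGF-beta on myeloid cells, was at 5.38, 13.0 and 26.9 CPM in intact WT tissue, the WT wound and the KO wound, ratios of 2.42 [1.72 to 3.47] and 2.07 [1.68 to 2.56]. Mmp9, a gelatinase of neutrophils, was at 4.89, 5.04 and 21.6 CPM, with a KO over WT ratio of 4.29 [3.18 to 5.87]. Ltbp4, another latent TGF-beta binding protein, was at 383, 311 and 246 CPM, ratios of 0.812 [0.774 to 0.852] and 0.793 [0.751 to 0.836]. Of the other ligands 1 of 3 reached a ratio of 2 in WT wound over intact, where 3.29% of all features did. It was Gdf11, a ligand close to myostatin, named here after its value was seen, at 4.42 [2.17 to 10.2] on 55 and 9 UMIs. Lefty1, a secreted antagonist of Nodal, had 0.713 [0.556 to 0.913].

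None of the other receptors, SMADs and their regulators or extracellular inhibitors with at least 50 UMIs passed a ratio of 2 or of 0.5 in either comparison. Nearest in the wound were Pmepa1, a TGF-beta induced gene that dampens the signal, at 1.97 [1.77 to 2.20] with the pieces apart, and Bgn, a proteoglycan that binds TGF-beta, at 1.93 [1.82 to 2.04] with the pieces apart. Smad6, the inhibitory SMAD of the BMP branch, was at 0.552 [0.411 to 0.741], with all wound pieces below the intact ones. Skil, a SMAD corepressor, was at 1.53 [1.30 to 1.81] in WT wound over intact and at 1.26 [1.10 to 1.44] in KO over WT wound.

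The genes whose pattern came closest to a member were found by the Pearson correlation of log2(CPM + 1) over 36 units of piece and layer, among 8642 genes. The units share libraries and marker-based layers, so the values are a description. For Thbs1 they were Calu (0.908), Galnt2 (0.904) and Efemp2 (0.897), and for Tgfbi Col4a1 (0.908), Ctsb (0.902) and Col4a2 (0.901). For Tgfbr2 they were Dab2 (0.881), Ccdc80 (0.867) and Twsg1 (0.867), and for Smad7 Mep1b (0.795), Erbb3 (0.789) and Slc45a3 (0.786). Tgfbr1 was closest to Akt2 (0.807) and Ctps (0.804), followed by Thbs1 (0.799). The other 5 genes had under 300 UMIs over the 3 libraries and were left out of this comparison.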

How the data were processed

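The deposited files hold raw UMI counts per gene and spot over tissue, written by Space Ranger 1.2.1 per the file headers, on mm10 per the submitters' processing notes. Aligner settings and annotation release are not given in the sources used here, and the images were not used. No spot was filtered and no doublet caller was run.

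UMI counts were summed over a library, a piece (connected spots, at least 20), a layer or a ring and divided by the total, giving CPM. Layers follow the marker list with the highest share relative to its mean. Ratios of counts were called past 2 or 0.5 with at least 50 UMIs over both sides, with exact conditional binomial 95% intervals. A count of 0 allows up to 3 UMIs. Log2 ratios are of CPM. With 1 library per group there was no test. Further pathway genes were named up to 2 per list and direction, taking those whose interval lay farthest from 1 among genes of 100 UMIs or more, and the 3 genes most like a member needed 300 UMIs. A gene that this rule names is not reported here. The members and lists were chosen with earlier results of these data known. Barcodes shared between libraries, 149 to 279 per pair, are fixed array positions. Scripts were tested on simulated data and used Python 3.11.15, numpy 2.4.6, scipy 1.17.1, pandas 2.3.3, matplotlib 3.10.9, and R 4.3.3 with edgeR 4.0.16 for TMM factors as an alternative scaling.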

Additional observations from a re-analysis of the deposited data

Results flagged for a closer look

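Tgfbr1 was drawn out because every WT wound piece and every KO wound piece lay on opposite sides of the core contrast. The WT inflammatory core was surface epithelium in 47 of 64 spots and the KO one in 19 of 57. In WT wound Tgfbr1 was lower in the inflammatory core than at 6 or more steps in 3 of 3 pieces (22.4 against 23.8 CPM, a ratio of 0.943 [0.633 to 1.38]), and in KO wound it was higher in 3 of 3 (47.8 against 17.5 CPM, a ratio of 2.73 [1.84 to 4.05]). The log2 ratio was higher by 1.53 in KO, and this difference was not tested. Within crypt spots both libraries were higher in that core, at 3.47 [1.10 to 11.8] in WT and 3.67 [1.43 to 11.1] in KO. On surface spots the ratios were 0.918 [0.533 to 1.56] and 1.36 [0.628 to 2.69]. On stroma spots they lay further apart, at 1.73 [0.401 to 5.83] in WT (4 and 11 UMIs) and 6.24 [1.68 to 34.5] in KO (12 and 3 UMIs). On muscle spots they were 0.773 [0.0900 to 3.01] and 1.10 [0.339 to 3.46]. The part of the layers was not tested. From the macrophage core both libraries were higher in the core, at 2.41 [1.62 to 3.56] and 2.38 [1.60 to 3.52].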

How the results depend on the processing

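No paired analysis was possible because each group is 1 library and the pieces carry no animal. Of the alternative values, 140 moved, 590 did not, and none turned a called direction. Over all features, WT wound over intact had 632, 160 and 1138 with a ratio of at least 2 (minimum of 20 UMIs, minimum of 200, fold of 1.5; 408 as reported) and 607, 197 and 872 at most 0.5 (382 as reported). KO over WT wound had 196, 35 and 416 (91 as reported) and 216, 19 and 340 (93 as reported). Leaving out each piece gave 302 to 486, 285 to 465, 89 to 150 and 54 to 295. Of the 10 genes in WT wound over intact, 2 passed when layer-standardised, thinned or with 20 UMIs, 0 with 200 UMIs, 3 at a fold of 1.5, and 0 to 2 with a piece left out (1 as reported). In KO over WT wound, 2 passed with equal weight per spot, layer-standardised or at 1.5, and 1 to 2 with a piece left out (1 as reported). On stroma and muscle, leaving out a piece gave 1 to 3 in WT intact, 3 to 5 in WT wound and 4 to 5 in KO wound, and spots split by epithelial against muscle list gave 5 in WT wound (3 as reported). In the WT inflammatory core, 2 passed with the top 5%, the top 20%, the top 10% of the library or the spot alone, 6 with the macrophage list or, chosen after seeing the data, without Slpi and Il1rn, 3 when layer-standardised, also chosen then, and 0 to 2 with a piece left out (1 as reported). In the KO core, pieces left out gave 2 to 4, and there the Thbs1 ratio ran from 9.42 to 45.9 and that of Inhba from 3.38 to 84.9. The causes were not tested. Low UMI counts limit Tgfb1 and Ltbp2, with 45 and 44 UMIs in the KO wound.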

Other observations

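Among other genes of the pathway, some were higher at the macrophage core of both wound libraries and some lower. Of all features, 17.4% in the WT wound and 18.4% in the KO wound were at least 2-fold higher there, and the genes here were named after their values were seen. Lox, which crosslinks collagen, was 32.5 [19.5 to 57.6] times higher in the WT core than at 6 or more steps and 59.5 [32.4 to 121] times in the KO core. Timp1, the metalloproteinase inhibitor, was 19.5 [14.6 to 26.4] and 30.2 [23.0 to 40.3] times higher. Pmepa1, which dampens the signal, was 3.62 [3.03 to 4.32] and 3.75 [3.17 to 4.44] times higher. On the target list, the cell cycle inhibitors Cdkn2b and Cdkn1a were lower in the core, at 0.289 [0.136 to 0.546] in WT and 0.294 [0.162 to 0.498] in KO for Cdkn2b, and at 0.380 [0.298 to 0.479] and 0.687 [0.563 to 0.832] for Cdkn1a. The transcription factor gene Bhlhe40 was at 0.766 [0.608 to 0.955] and 0.879 [0.722 to 1.06].

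Itgb6, the subunit of an epithelial integrin that activates latent TGF-beta, was placed otherwise. Its macrophage core ratio was 0.819 [0.438 to 1.43] in WT wound and 1.04 [0.632 to 1.64] in KO wound, while its inflammatory core ratio was 2.91 [2.07 to 4.10] and 1.63 [1.09 to 2.43]. None of these differences was tested.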
